A study of Mus musculus with 22 samples.

Results

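The 10 genes described here mark the endothelium of the liver, and they were taken by symbol from a table of 55573 mouse genes, in which each had 1 row. Stab1, Stab2, Lyve1, Clec4g and Flt4 stand for the sinusoid, Pecam1 and Kdr are shared by endothelial cells of many vessels, and Cd34, Vwf and Plvap stand for capillaries and large vessels. All 10 had a mean of at least 10 reads over the 22 libraries and were tested among 14062 genes that did. RNA was sequenced from whole livers of C57BL/6 mice in 4 groups, and every mouse carried Albumin-cre+/-. The Cre mice were Flcn WT/WT; Albumin-cre+/-, and the liver-Flcn-/- mice, labelled FLCN KO, were Flcn f/f; Albumin-Cre+/-. Either genotype received a control chow or a methionine- and choline-deficient (MCD) diet for 6 weeks from 6 weeks of age. The groups were Cre Chow (n = 6), Cre MCD (n = 5), FLCN KO Chow (n = 5) and FLCN KO MCD (n = 6). The Albumin promoter is used to drive Cre in hepatocytes, and Flcn was not measured by cell type here. Library totals ran from 15276157 to 19417246 counts in Cre Chow, 18201287 to 21144388 in Cre MCD, 13751347 to 19645473 in FLCN KO Chow and 16616132 to 20706657 in FLCN KO MCD.

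Liver sinusoidal endothelial cells line the hepatic sinusoid, have open pores and no organised basement membrane, and take up waste macromolecules from blood through scavenger and lectin receptors. In chronic injury they can lose those pores and receptors and take on features of ordinary capillaries, with a basement membrane and markers such as Cd34, a process called capillarization. Larger hepatic vessels carry von Willebrand factor. The MCD diet gives steatohepatitis in mice, and folliculin, the product of Flcn, is a regulator of nutrient signalling that keeps the transcription factor TFE3 out of the nucleus. In RNA from whole liver, a change in the number of cells of a type, in RNA per cell or in expression by another cell type cannot be told apart. This holds for every difference given below.

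Several properties of the libraries bear on the results and are given first. Flcn itself was measured over the whole gene, including exons outside the deleted part and cells other than hepatocytes. On chow it ran from 26.1 to 40.2 CPM (counts-per-million, normalised for library composition) in Cre mice, with a median of 31.8, and was 24.2, 19.96, 16.7, 19.4 and 21.8 in FLCN KO mice. The chow groups did not overlap, and Flcn was lower in FLCN KO mice by a log2 fold change of -0.63 ± 0.173 (SE, adjusted p = 0.0249). On MCD the values overlapped, from 18.2 to 39.9 in Cre mice and from 17.6 to 32.6 in FLCN KO mice, with a log2 fold change of -0.16 ± 0.170 (adjusted p = 0.567). The Flcn count therefore separated the genotypes on chow only, and groups are named as the labels give them. The labels give no sex. Xist, the transcript of the inactive X chromosome, was above 1000 reads in 12 libraries and at 0 to 19 reads in 10, and these are called female and male below. The 5 chow libraries with a low share of uniquely mapped reads in the study's mapping statistics were exactly the 5 male chow mice (Cre Chow 1, 5 and 6 and FLCN KO Chow 1 and 3), so sex and mapping share cannot be told apart on chow. Some Xist-expressing libraries also held Y-linked reads, at 15.5% of the mean male level in Cre MCD 1 and 15.0% in FLCN KO Chow 2. The 15 skeletal muscle genes of a list came together to 3791 CPM in Cre MCD 3, 184 in Cre MCD 4 and 92.2 in FLCN KO MCD 3, and to at most 28.1 in the other libraries. Cre MCD 3 and Cre MCD 4 were also the only male mice of Cre MCD. Each value below for males alone that uses Cre MCD therefore rests on these libraries. Leaving out the libraries high in muscle transcripts left only females in Cre MCD, so sex and muscle transcripts cannot be told apart in that group. A fit with a term for sex called 1.61% of all genes higher and 1.1% lower in males, and none of the 10 endothelial genes, of which none had an unadjusted p under 0.05 either.

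Compared per base of exon, in RPKM (reads per kilobase of exon, scaled to library size), the 10 genes spanned a wide range of levels, and the order was similar in the 4 groups. Plvap was at the top of the order, with 23.7 ± 4.55 (SD, n = 6) in Cre Chow, and Clec4g came next with 22.2 ± 5.57, a difference within the spread between mice. Stab2 followed at 4.78 ± 0.725, Kdr at 4.24 ± 0.990 and Stab1 at 3.56 ± 0.614, and neighbours among these also overlapped. Lyve1 (2.63 ± 0.992), Pecam1 (2.61 ± 0.582) and Flt4 (2.02 ± 0.441) did not stand apart from each other. Vwf at 0.282 ± 0.0465 and Cd34 at 0.120 ± 0.0378 were the least abundant. Plvap, grouped here with Vwf and Cd34, thus lay in Cre Chow at the level of the sinusoidal gene Clec4g and not near theirs. Plvap, Clec4g and Stab2 held the upper places in that order in each group, although Plvap and Clec4g were both at 22.4 in FLCN KO Chow, and there Stab2 reached 8.09 ± 0.855, above Kdr at 4.94 ± 1.27. In Cre MCD Plvap, at 32.5 ± 6.08, lay well above Clec4g at 12.8 ± 2.25. In reads, Lyve1 had 67 to 217 per mouse, whereas Cd34 had 8 to 22 and Vwf 42 to 81 reads per mouse in Cre Chow.

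**Figure D1:**
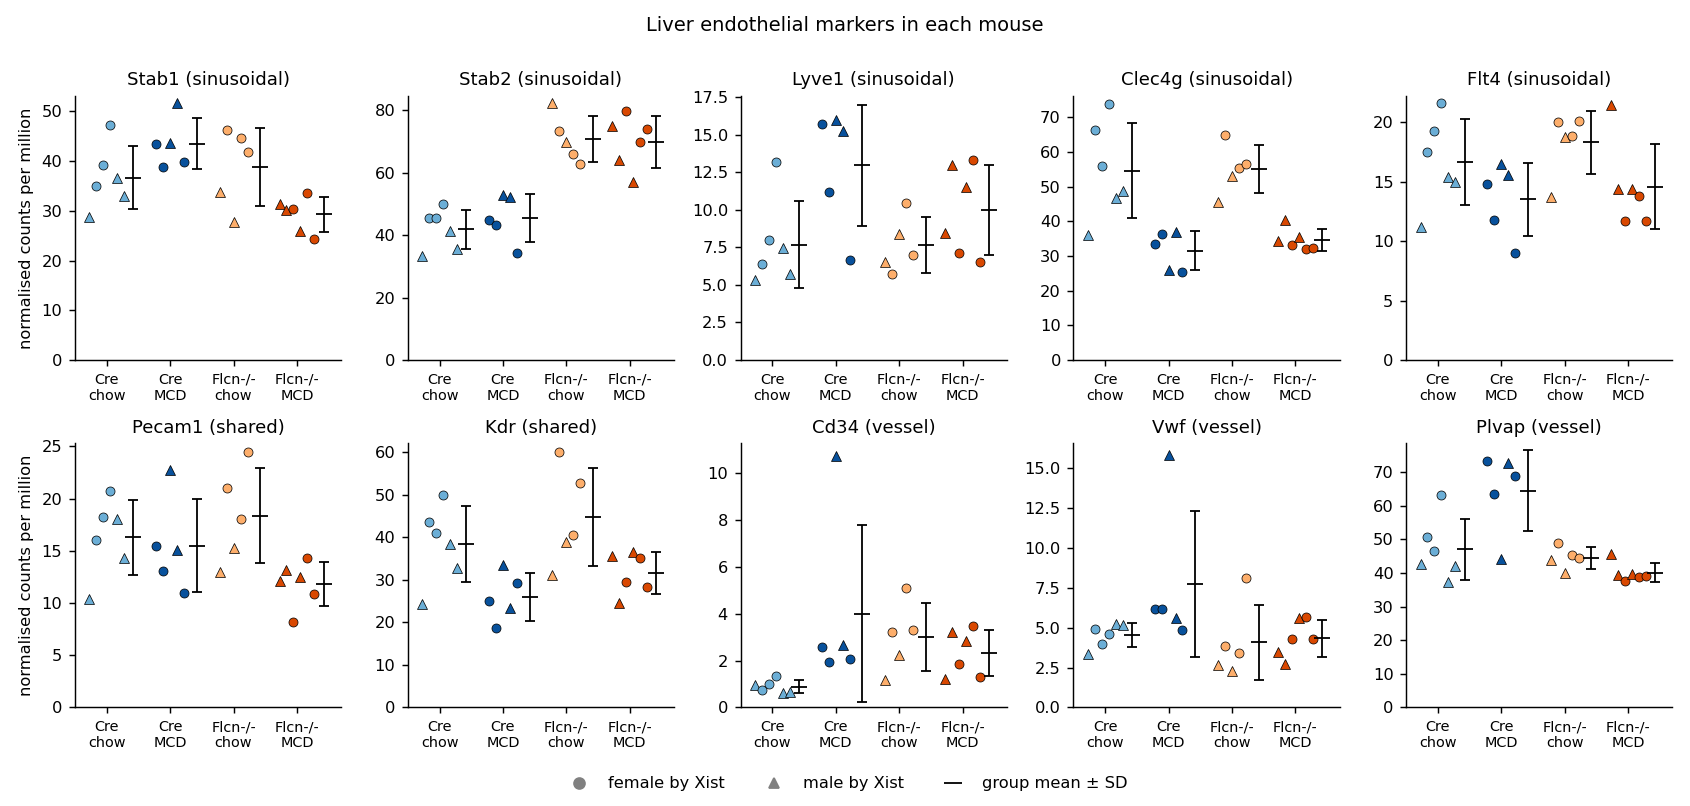
Each panel plots 1 gene, with the 4 groups on the horizontal axis and CPM on a vertical axis that starts at 0; circles are female and triangles male mice, and the bar beside each group is its mean ± SD. Stab2 lies higher in both FLCN KO groups than in both Cre groups, Clec4g lies lower on MCD in both genotypes, and 1 Cre MCD mouse reaches 10.7 CPM for Cd34 and 15.8 CPM for Vwf.

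Promoter sequence was at hand from RefSeq (GRCm38.p6) for 6 of the 10 genes, as 250 bases before to 50 bases after the annotated start. The 4 windows shown belong to the genes on which the results turn, namely Stab2 for genotype, Clec4g for diet, and Stab1 and Cd34 for their different response to diet in the 2 genotypes. They are printed 5′ to 3′ on the strand of the gene, and capitals mark a match to CAGGAAG, an ETS core, or to its reverse complement CTTCCTG. They lie at chr10:87007893-87008192 (minus strand) for Stab2, chr8:3720602-3720901 (minus strand) for Clec4g, chr14:31168592-31168891 (minus strand) for Stab1 and chr1:194938571-194938870 (plus strand) for Cd34.
Stab2: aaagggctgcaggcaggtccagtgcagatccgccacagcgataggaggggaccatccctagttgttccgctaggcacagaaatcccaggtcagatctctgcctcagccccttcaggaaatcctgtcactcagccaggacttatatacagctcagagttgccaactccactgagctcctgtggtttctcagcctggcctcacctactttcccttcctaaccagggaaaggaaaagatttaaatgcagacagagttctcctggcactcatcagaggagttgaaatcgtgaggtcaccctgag
Clec4g: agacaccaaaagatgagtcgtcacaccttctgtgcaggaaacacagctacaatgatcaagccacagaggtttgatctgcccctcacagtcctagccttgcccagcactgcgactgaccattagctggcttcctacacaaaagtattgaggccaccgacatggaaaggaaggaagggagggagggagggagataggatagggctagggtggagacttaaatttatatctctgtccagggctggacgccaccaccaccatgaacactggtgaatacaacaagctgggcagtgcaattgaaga
Stab1: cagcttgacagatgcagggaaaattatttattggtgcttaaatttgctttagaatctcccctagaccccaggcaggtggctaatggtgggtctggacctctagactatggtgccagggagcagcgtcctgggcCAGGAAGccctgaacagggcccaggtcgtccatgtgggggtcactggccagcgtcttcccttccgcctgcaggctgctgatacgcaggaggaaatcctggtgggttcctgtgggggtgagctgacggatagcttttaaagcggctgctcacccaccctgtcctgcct
Cd34: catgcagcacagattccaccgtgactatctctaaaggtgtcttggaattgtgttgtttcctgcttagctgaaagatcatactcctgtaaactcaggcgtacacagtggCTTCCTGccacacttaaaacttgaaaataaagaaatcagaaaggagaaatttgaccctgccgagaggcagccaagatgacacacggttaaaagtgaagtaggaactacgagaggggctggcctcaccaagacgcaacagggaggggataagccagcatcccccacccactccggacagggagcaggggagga
The ETS core stood once in the Stab1 window, with its first base 117 bases before the start, and once, reversed, in the Cd34 window, 142 bases before the start. It was not found in the windows of Stab2, Clec4g, Flt4 or Kdr, and 13.3% of 32851 windows of this length hold it on either strand. The GATA letters AGATAA (11.2% of windows), the forkhead letters TGTTTAC (3.65%) and, added after the values were seen, the E-box CACGTG (7.15%) were searched on both strands and matched none of the 6 windows. These motifs do not overlap each other. A match describes the letters and is not evidence of a bound site.

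The design asks how the MCD diet acts in each genotype, how the genotypes differ on each diet, and whether the diet acts differently in the genotypes. In Cre mice the MCD diet raised 4 of the 10 genes (Cd34, Vwf, Plvap and Lyve1) and lowered 2 (Clec4g and Kdr) at an adjusted p under 0.05 by edgeR, where 29.3% of all genes tested rose and 28.2% fell. In the FLCN KO groups it raised none and lowered 4 (Clec4g, Kdr, Stab1 and Pecam1), against 22.5% of all genes higher and 22.5% lower. Between genotypes on chow, Stab2 and Cd34 were higher in FLCN KO mice and none was lower, where 5.52% of all genes were higher and 3.1% lower. On MCD, Stab2 was higher and Stab1 and Plvap were lower in FLCN KO mice, against 8.06% and 8.53% of all genes. The diet effect itself differed between genotypes for Stab1, Cd34 and Plvap, all lower in FLCN KO mice, where 3.29% of all genes had a higher and 5.54% a lower interaction. The counts in the diet comparisons are near these background shares and are no result about the 10 genes as a set, so the genes are described singly. The diet comparisons share no mice between genotypes, whereas each group serves in 2 comparisons and in the interaction.

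The direction of small diet effects depended on how libraries were scaled. The TMM factors of edgeR were below 1 on chow and above 1 on MCD in every library. Without them, using total counts alone, the median of all genes moved up by 0.42 on the log2 scale for the diet in Cre mice, by 0.26 in FLCN KO mice and by 0.15 for the genotype on chow, and the share of calls that were higher went from 50.9% to 81.9%, from 49.97% to 77.0% and from 64.0% to 92.1%. It went from 37.3% to 12.5% for the interaction, where the median moved by -0.16, and from 48.6% to 47.7% for the genotype on MCD. With upper-quartile factors those shares were 56.4%, 50.5%, 72.7%, 26.1% and 41.8%. All values below are relative to the TMM scale, on which the median gene lay between -0.027 and 0.030 in the 5 comparisons.

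**Figure D2:**
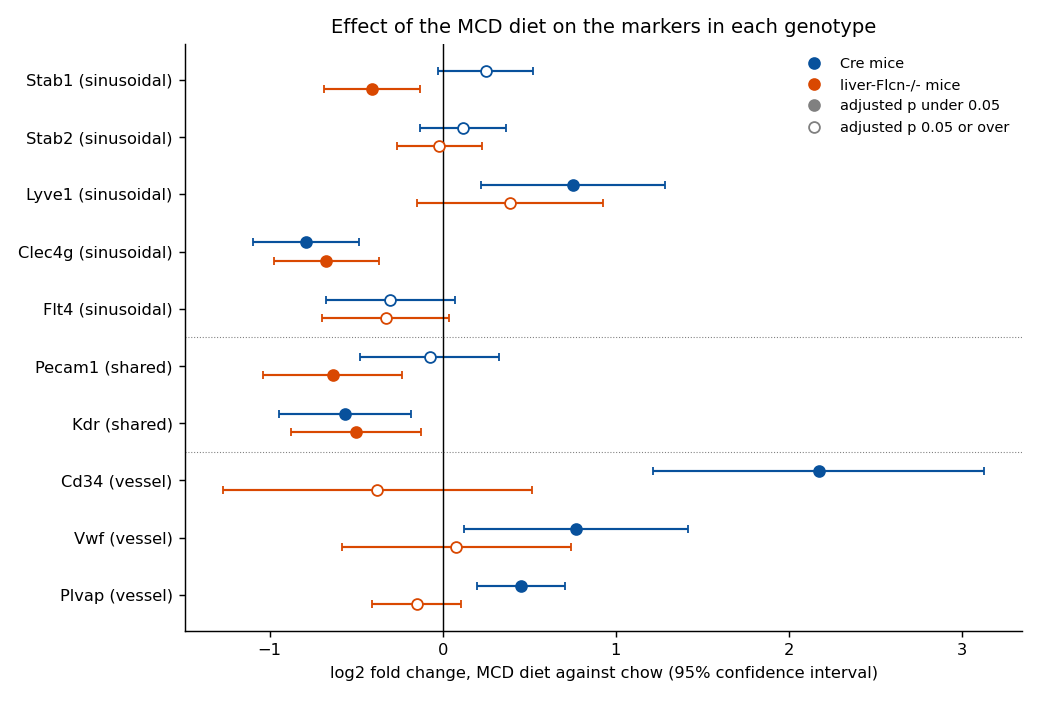
Each point is the log2 fold change of 1 gene on MCD against chow, with its 95% confidence interval, in Cre mice (blue) and liver-Flcn-/- mice (orange); filled points have an adjusted p under 0.05. Clec4g and Kdr lie to the left of 0 in both genotypes, and Cd34, Vwf and Plvap lie to the right in Cre mice alone at that threshold, with a difference between genotypes that passed for Cd34 and Plvap and not for Vwf (adjusted p = 0.366).

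Stab2, a scavenger receptor that clears hyaluronan and other macromolecules from blood, was the only one of the 10 genes called between the genotypes on both diets. In Cre Chow it ran from 33.4 to 49.8 CPM with a median of 43.4, and the FLCN KO Chow mice had 82.2, 73.4, 69.7, 66.0 and 62.8. On MCD the Cre mice had 44.8, 43.3, 53.0, 52.1 and 34.1, and the FLCN KO mice ran from 56.9 to 79.7 with a median of 71.8. Every FLCN KO mouse was above every Cre mouse on the same diet. Stab2 was 1.69-fold higher on chow (log2 fold change 0.76 ± 0.119, adjusted p = 0.000228) and 1.54-fold higher on MCD (0.62 ± 0.120, adjusted p = 0.00120). The exact two-sided permutation test gave p = 0.00216 on chow, the smallest that 6 against 5 mice allow, and 0.00433 on MCD. The diet did not pass the threshold in either genotype (0.12 ± 0.119, adjusted p = 0.411 in Cre mice, and -0.02 ± 0.119, adjusted p = 0.907 in FLCN KO mice), and the 95% interval of the diet effect in FLCN KO mice was -0.27 to 0.23. With male mice alone Stab2 was higher on MCD in Cre mice (0.53, adjusted p = 0.0219), and with females alone the change was -0.20 (0.153). Among female mice alone the genotype difference was 0.52 on chow (adjusted p = 0.0210) and 0.87 on MCD (0.000501), among male mice 1.07 (0.00358) and 0.30 (0.314), and without the 5 chow libraries of low mapping share it was 0.52 on chow with an adjusted p of 0.0582. On total counts alone Stab2 rose on MCD in Cre mice, by 0.54. The gene spans chr10:86841198-87008025 on the minus strand and shares 141 exon bases with the antisense gene Gm16268. Which cell type made the Stab2 transcripts was not tested.

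Stab1, the related receptor stabilin-1, which is also found on some macrophages, behaved differently from Stab2. It ran from 28.7 to 47.3 CPM in Cre Chow (median 35.8) and was 43.4, 38.9, 43.6, 51.8 and 39.8 in Cre MCD. In FLCN KO Chow it was 33.8, 46.3, 27.7, 44.7 and 41.8, and in FLCN KO MCD it ran from 24.3 to 33.6 (median 30.3). The 2 MCD groups did not overlap, with each FLCN KO mouse below each Cre mouse. Stab1 fell by 0.41 on the log2 scale on MCD in FLCN KO mice (SE 0.133, adjusted p = 0.0154), while in Cre mice the change was 0.25 ± 0.132 (adjusted p = 0.115), and the interaction was -0.66 ± 0.187 (adjusted p = 0.0323). On MCD it was 1.49-fold lower in FLCN KO than in Cre mice (-0.57 ± 0.132, adjusted p = 0.00490). Leaving out FLCN KO Chow 2 ended the diet call in FLCN KO mice (-0.34, adjusted p = 0.0570), and leaving out Cre Chow 4 gave a call in Cre mice (0.33, 0.0325). Among female mice alone the diet change was -0.59 in FLCN KO mice (adjusted p = 0.00367) and 0.0078 in Cre mice (0.965), and among males it was -0.09 (0.724) and 0.56 (0.0195). The interaction call was lost on leaving out Cre Chow 1, Cre MCD 1, Cre MCD 4, FLCN KO Chow 2, 4 or 5, or FLCN KO MCD 6, with values of -0.66 to -0.59 and adjusted p up to 0.0678. It passed neither with female mice alone (-0.60, adjusted p = 0.0662) nor with males alone (-0.65, 0.272). Without the 3 MCD libraries above 50 CPM of muscle transcripts the genotype difference on MCD was -0.48 (adjusted p = 0.0708) and the interaction -0.59 (0.111). On total counts alone Stab1 rose by 0.66 on MCD in Cre mice (adjusted p = 0.00035), and the change in FLCN KO mice was -0.15 (adjusted p = 0.409).

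Clec4g, the lectin LSECtin of sinusoidal cells, was lower on MCD in both genotypes. It ran from 36.1 to 73.8 CPM in Cre Chow (median 52.4) and was 33.4, 36.2, 25.9, 36.9 and 25.4 in Cre MCD. In FLCN KO Chow it was 45.6, 64.9, 53.1, 55.5 and 56.6, and in FLCN KO MCD it ran from 32.1 to 40.3 (median 33.7). The diet groups did not overlap in FLCN KO mice and overlapped in Cre mice through Cre Chow 1 at 36.1. Clec4g fell by 0.79 in Cre mice (SE 0.148, adjusted p = 0.000112, 1.73-fold) and by 0.67 in FLCN KO mice (SE 0.145, adjusted p = 0.000716, 1.59-fold). The interaction of 0.12 ± 0.206 had a 95% interval of -0.31 to 0.55, and neither genotype difference passed (adjusted p = 0.973 on chow and 0.601 on MCD). In Cre Chow the 3 female mice averaged 65.3 and the 3 male mice 43.9, and with male mice alone the diet changes were -0.46 (adjusted p = 0.0822) and -0.45 (0.113). With female mice alone they were -1.04 and -0.86, and both passed. On total counts alone they were -0.37 (adjusted p = 0.0471) and -0.41 (0.0351). Clec4g spans chr8:3707064-3720651 on the minus strand and shares 146 exon bases with the antisense gene Gm16553.

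Lyve1, a hyaluronan receptor of sinusoidal and lymphatic endothelium, moved the other way from Clec4g. It ran from 5.30 to 13.2 CPM in Cre Chow (median 6.91) and was 15.7, 11.2, 15.9, 15.2 and 6.66 in Cre MCD. In FLCN KO Chow it was 6.54, 5.70, 8.40, 10.5 and 7.01, and in FLCN KO MCD it ran from 6.49 to 13.3 (median 9.96). All of these groups overlapped, the Cre MCD group through Cre MCD 5 at 6.66. Lyve1 rose 1.68-fold on MCD in Cre mice (0.75 ± 0.256, adjusted p = 0.0158), and the change in FLCN KO mice was 0.39 ± 0.259 (adjusted p = 0.235), with an interaction of -0.37 ± 0.363 (adjusted p = 0.586). The call in Cre mice was lost without the 5 chow libraries of low mapping share (0.50, adjusted p = 0.205), with female mice alone (0.29, 0.521) with mapping share as a covariate (0.61, 0.0682) and without the 3 libraries high in muscle transcripts (0.55, 0.122). With male mice alone it was 1.36 (adjusted p = 0.00129), and on total counts alone 1.18 (0.000656), where Lyve1 also passed in FLCN KO mice (0.65, 0.0497). Flt4, the VEGF-C receptor VEGFR-3, did not pass in any comparison with all mice and no covariate. It ran from 11.2 to 21.6 CPM in Cre Chow, 9.02 to 16.5 in Cre MCD, 13.7 to 20.2 in FLCN KO Chow and 11.7 to 21.4 in FLCN KO MCD, and its diet changes were -0.30 ± 0.179 and -0.33 ± 0.177 (adjusted p = 0.153 and 0.135). Among female mice alone the changes were -0.71 (adjusted p = 0.00213) and -0.66 (0.00504), whereas among males they were 0.23 and 0.02. Both also passed with mapping share as a covariate (-0.48, 0.0265 and -0.48, 0.0257). The change in Cre mice passed without the 5 chow libraries of low mapping share (-0.52, 0.0308), and that in FLCN KO mice without FLCN KO MCD 1 (-0.47, 0.0259).

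The shared endothelial genes did not rise in any comparison. Kdr, the main receptor for VEGF-A, ran from 24.2 to 49.8 CPM in Cre Chow (median 39.7) and was 25.0, 18.6, 33.4, 23.3 and 29.3 in Cre MCD. It was 31.2, 59.9, 38.9, 40.5 and 52.7 in FLCN KO Chow and ran from 24.5 to 36.4 (median 32.3) in FLCN KO MCD. The diet groups overlapped in both genotypes, although the 4 highest Cre values and the 4 highest FLCN KO values were on chow. Kdr fell by 0.56 on MCD in Cre mice (SE 0.184, adjusted p = 0.0123) and by 0.50 in FLCN KO mice (SE 0.181, adjusted p = 0.0287), with an interaction of 0.06 ± 0.258. Among female mice alone the changes were -0.89 (adjusted p = 0.000951) and -0.72 (0.00536), and among males -0.14 (0.699) and -0.14 (0.723). The call in FLCN KO mice was lost on leaving out FLCN KO Chow 2 or 5 or FLCN KO MCD 2, 3 or 6, with values of -0.48 to -0.37 and adjusted p up to 0.115. Pecam1, an adhesion molecule of endothelial junctions, was 12.996, 21.0, 15.2, 18.1 and 24.5 in FLCN KO Chow and ran from 8.16 to 14.3 (median 12.3) in FLCN KO MCD, a fall of 0.64 (SE 0.194, adjusted p = 0.0105). Only FLCN KO Chow 1 lay within the range of the MCD group. That change was -0.93 with female mice alone (adjusted p = 0.00239) and -0.19 with males alone (0.621). In Cre mice Pecam1 overlapped widely, from 10.4 to 20.8 on chow and from 10.96 to 22.7 on MCD (-0.08 ± 0.194, adjusted p = 0.754), and the difference between genotypes in the diet effect did not pass (-0.56 ± 0.274, adjusted p = 0.212). On total counts alone Kdr in both genotypes and Pecam1 in FLCN KO mice no longer passed, and Pecam1 in Cre mice changed sign to 0.34 (adjusted p = 0.143).

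Cd34, a sialomucin of capillary endothelium that is also made by some fibroblasts and progenitor cells, had the fewest reads of the 10 genes, and its changes were the largest of the 10 for the diet in Cre mice, for genotype on chow and in the interaction, but not in the other comparisons. In Cre Chow the 6 mice ran from 0.609 to 1.34 CPM (median 0.839), and the Cre MCD mice had 2.59, 1.94, 10.7, 2.67 and 2.05. FLCN KO Chow mice had 1.17, 3.21, 2.22, 5.07 and 3.29, and FLCN KO MCD mice ran from 1.23 to 3.47 (median 2.33). In Cre mice the diet groups did not overlap, and in FLCN KO mice the MCD range lay inside the chow range. Cd34 rose 4.51-fold on MCD in Cre mice (2.17 ± 0.460, adjusted p = 0.000403), and the change in FLCN KO mice was -0.38 ± 0.429 (adjusted p = 0.499). The interaction was -2.55 ± 0.628 (adjusted p = 0.0153). On chow Cd34 was 3.40-fold higher in FLCN KO than in Cre mice (1.77 ± 0.466, adjusted p = 0.0202), with FLCN KO Chow 1, at 1.17, within the Cre range. The rise in Cre mice was 1.10 with female mice alone (adjusted p = 0.0250) and 3.21 with males alone (0.00324). The only male Cre MCD mice were Cre MCD 3 and Cre MCD 4, both high in muscle transcripts, so sex and muscle transcripts cannot be told apart there. With males alone neither the difference on chow (1.24, 0.489) nor the interaction (-2.71, 0.231) passed.

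The library with the highest Cd34, Cre MCD 3, was also the one with 3791 CPM of muscle transcripts. Without it Cd34 rose by 1.39 on MCD in Cre mice (adjusted p = 0.00235), the interaction was -1.76 (0.0227), and the genotype difference on MCD went from -0.78 to 0.00. Without all 3 libraries above 50 CPM of muscle transcripts the rise was 1.32 (adjusted p = 0.00921) and the interaction -1.66 (0.0753). The 2 Cre MCD mice with the least muscle transcript, at 8.92 and 5.38 CPM, had Cd34 at 1.94 and 2.05, above each Cre Chow mouse. Summed transcripts of portal fibroblasts and mesothelium were 56.4 CPM in Cre MCD 3, 17.0 to 21.6 in the other Cre MCD mice and 6.19 to 16.1 in Cre Chow (median 11.2). They were 9.47 to 18.2 in FLCN KO Chow (median 17.8), where Cd34 was also higher than in Cre Chow, and 9.73 to 16.8 in FLCN KO MCD, and their part in the Cd34 differences was not tested. On chow, the Cd34 call was lost on leaving out FLCN KO Chow 4 (1.49, adjusted p = 0.0829), with limma-voom (1.68, 0.0679) and without the 5 libraries of low mapping share (1.91, 0.111). Cd34 spans chr1:194938819-194961279 on the plus strand and shares 148 exon bases with the antisense gene Gm16897.

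**Figure D3:**
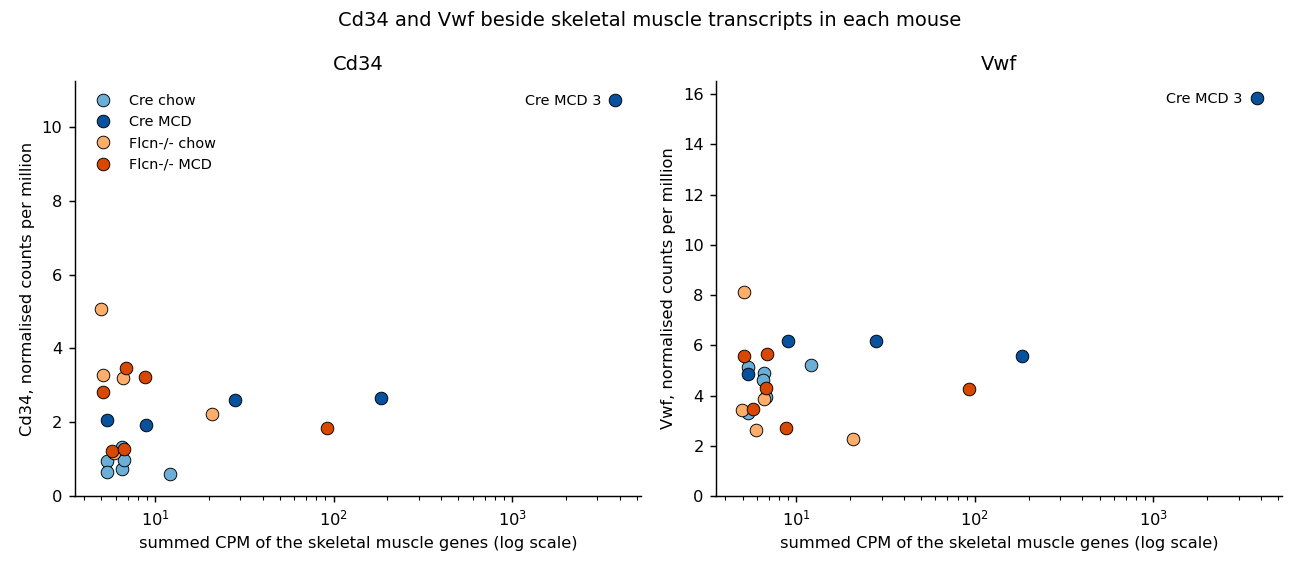
Each point is 1 mouse, with the summed CPM of 15 skeletal muscle genes on a logarithmic horizontal axis and Cd34 (left) or Vwf (right) in CPM on a linear vertical axis that starts at 0. Cre MCD 3 stands apart at 3791 CPM of muscle transcripts with the highest value of both genes, and Cre MCD 4, at 184 CPM, has Cd34 of 2.67 and Vwf of 5.58, close to the other Cre MCD mice.

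Vwf, the blood-clotting factor stored in large vessel endothelium and platelets, ran from 3.32 to 5.21 CPM in Cre Chow (median 4.77) and was 6.18, 6.16, 15.8, 5.58 and 4.87 in Cre MCD. In FLCN KO Chow it was 2.65, 3.86, 2.28, 3.42 and 8.14, and in FLCN KO MCD it ran from 2.71 to 5.67 (median 4.28). The groups overlapped, and the value of 15.8 belonged again to Cre MCD 3. Vwf rose in Cre mice by 0.77 ± 0.313 (adjusted p = 0.0399), and without Cre MCD 3 the change was 0.33 with an adjusted p of 0.299. With female mice alone it was 0.35 (adjusted p = 0.308) and with males alone 1.25 (0.0445), and on total counts alone 1.19 (0.00223). The call was also lost on leaving out Cre Chow 1, 2, 3 or 4 (0.70 to 0.79, adjusted p from 0.0513 to 0.0793), with limma-voom (0.63, 0.0739) and with mapping share as a covariate (0.55, 0.199). Nor did it pass without the 5 chow libraries of low mapping share (0.78, 0.0952) or without the 3 libraries high in muscle transcripts (0.35, 0.350). On MCD the genotype difference was -0.84 ± 0.309 (adjusted p = 0.0689). It passed with DESeq2 (-0.84, 0.0399), without Cre MCD 5 (-0.97, 0.0433) and without FLCN KO Chow 5 (-0.84, 0.0343), and was -0.40 (0.329) without Cre MCD 3. The platelet genes summed to 5.06 to 6.38 CPM in Cre MCD and 2.06 to 5.29 in Cre Chow. Of 7 listed, Itga2b was the most abundant with a mean of 2.68 CPM and Gp1bb was at 0 reads in every library, and the part of platelets in the Vwf values was not tested.

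Plvap, the diaphragm protein of fenestrated capillaries, ran from 37.3 to 63.0 CPM in Cre Chow (median 44.6) and was 73.3, 63.6, 44.0, 72.6 and 68.9 in Cre MCD. In FLCN KO Chow it was 44.0, 49.0, 39.9, 45.2 and 44.5, and in FLCN KO MCD it ran from 37.5 to 45.8 (median 39.3). The 4 Cre MCD mice other than Cre MCD 3 were above every other mouse in the series. Plvap rose 1.37-fold on MCD in Cre mice (0.45 ± 0.123, adjusted p = 0.00338), with a change of -0.15 ± 0.123 in FLCN KO mice (adjusted p = 0.333). On MCD it was 1.61-fold lower in FLCN KO than in Cre mice (-0.69 ± 0.123, adjusted p = 0.000642), a call lost with male mice alone (-0.49, 0.172). The interaction was -0.61 ± 0.174 (adjusted p = 0.0337). Without Cre MCD 3, which had the least Plvap of the Cre MCD mice and much muscle transcript, it was -0.72 (0.00518). That interaction was not past the threshold on leaving out any 1 of Cre Chow 1, 5 or 6, Cre MCD 1 or 4, FLCN KO Chow 2, 4 or 5, or FLCN KO MCD 3 or 6 (-0.61 to -0.55, adjusted p up to 0.07003). Without the 5 chow libraries of low mapping share the change in Cre mice was 0.27 (adjusted p = 0.115) and the interaction -0.48 (0.1601). With male mice alone these were 0.54 (adjusted p = 0.0504) and -0.57 (0.470), and on total counts alone the rise in Cre mice was 0.87 (4.69e-06).

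The balance between the classes was described as the mean log2 CPM of Cd34, Vwf and Plvap minus that of the 5 sinusoidal genes, with no test. It was -2.09 ± 0.172 (SD, n = 6) in Cre Chow, with a range of -2.21 to -1.78, and -1.35, -1.37, -0.49, -1.52 and -1.03 in the Cre MCD mice, so that all 5 lay above all Cre Chow mice. In FLCN KO mice it was -1.90 ± 0.339 (SD, n = 5) on chow and -1.78 ± 0.254 (SD, n = 6) on MCD, and these groups overlapped. The difference between diets was 0.94 in Cre mice, or 0.77 without Cre MCD 3, and 0.12 in FLCN KO mice, where leaving out 1 mouse gave 0.026 (without FLCN KO Chow 1) to 0.23 (without FLCN KO Chow 5). The sinusoidal mean was 4.64 ± 0.309 in Cre Chow and 4.65 ± 0.273 in Cre MCD, whereas the vessel mean was 2.56 ± 0.194 and 3.50 ± 0.457. Of the vessel genes, Cd34 weighed most in this difference, since its log2 fold change in Cre mice was 2.17, against 0.77 for Vwf and 0.45 for Plvap. Cd34 had only 8 to 22 reads per mouse in Cre Chow, and on chow it was already 1.77 higher in FLCN KO mice. The sinusoidal class did not move as 1 body, since Clec4g fell, Lyve1 rose and Stab2 did not pass in Cre mice.

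**Figure D4:**
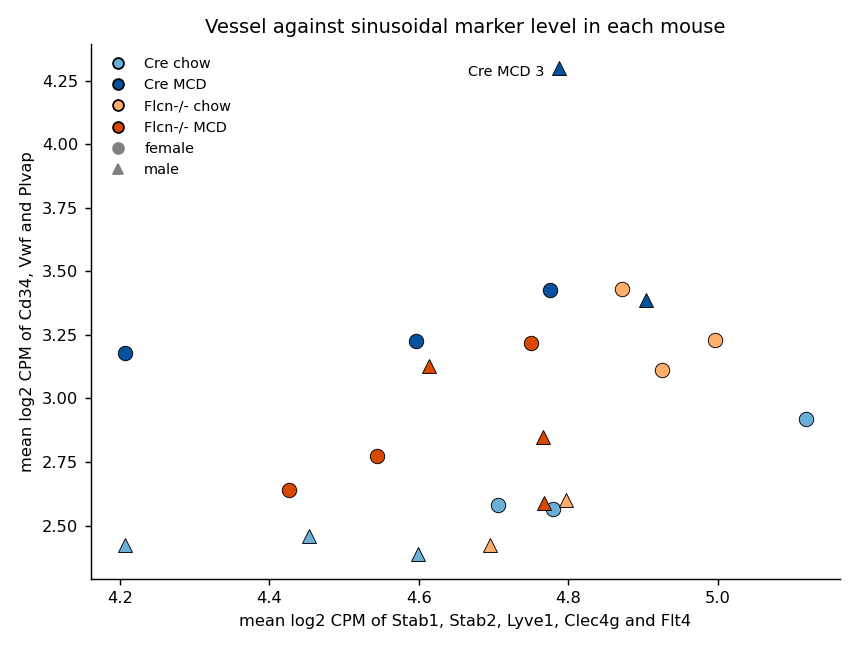
Each point is 1 mouse, with the mean log2 CPM of the 5 sinusoidal genes on the horizontal axis and that of Cd34, Vwf and Plvap on the vertical axis; circles are female and triangles male. The 5 Cre MCD mice lie above the 6 Cre Chow mice on the vertical axis, while the FLCN KO Chow and FLCN KO MCD mice overlap.

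Further endothelial genes are described by list, as counts beside the median of the list and of all genes tested, and the counts are to be read against the 29.3% of all genes that rose and 28.2% that fell on MCD in Cre mice and the 22.5% in either direction in FLCN KO mice. Of 13 further sinusoidal genes tested, 8 fell and 2 rose on MCD in Cre mice (list median -0.53, all genes 0.01), and 7 fell and none rose in FLCN KO mice (median -0.38, all genes 0.00). Gata4, the transcription factor that sets sinusoidal identity, fell by 1.25 (SE 0.148, adjusted p = 4.17e-07) and by 1.13 (SE 0.144, adjusted p = 2.01e-06). In Cre mice it averaged 16.7 ± 3.50 CPM on chow and 7.01 ± 0.925 on MCD, and in FLCN KO mice 18.0 ± 3.41 and 8.21 ± 1.11. Gpr182, a chemokine-scavenging receptor, fell by 0.97 in both, Dnase1l3, a secreted nuclease, by 0.72 and 0.76, and Ehd3, which shapes membranes, by 0.67 and 0.61. The 2 that rose in Cre mice were C1qtnf1 (0.58) and Clec1b (0.40). None of the 13 was called by edgeR, DESeq2 or limma-voom between genotypes on either diet or in the interaction, and 1 in each of these comparisons had an unadjusted p under 0.05 by edgeR. With male mice alone 1 rose and 1 fell in Cre mice and 3 fell in FLCN KO mice, while calls over all genes went from 8089 to 4684 and from 6328 to 2916. On total counts alone 2 rose and 2 fell in Cre mice, where 7900 of all 14062 genes rose and 1748 fell, and 2 rose and 3 fell in FLCN KO mice, where 5803 rose and 1731 fell.

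Of 20 pan-endothelial genes, 6 fell on MCD in Cre mice (median -0.40, where 28.2% of all genes fell) and 13 in FLCN KO mice (median -0.52, where 22.5% fell), and none rose. With all mice in the fit the count in Cre mice is near the background share, and it depends on Cre MCD 3, as given below. S1pr1, the sphingosine-1-phosphate receptor that holds endothelial junctions closed, fell by 1.95 (SE 0.216, adjusted p = 1.61e-07) in Cre mice, from 79.8 ± 22.4 to 20.6 ± 5.67 CPM, and by 1.66 in FLCN KO mice. Cdh5, VE-cadherin, fell by 0.77 and 0.86, and Ptprb, the phosphatase of its junctions, by 0.47 and 0.43. Cldn5, a tight junction claudin, fell by 0.60 in Cre mice. Without Cre MCD 3 the count in Cre mice was 12 of 20, close to that in FLCN KO mice, while calls over all genes, in both directions, went from 8089 to 8209. With all mice the interaction called none of the 20 by edgeR or DESeq2, with 2 at an unadjusted p under 0.05. On MCD, Ecscr and Ramp2 were lower in FLCN KO than in Cre mice (-0.68 and -0.50), and neither of these calls remained without Cre MCD 3, where no pan-endothelial gene passed. On total counts alone 4 of the 20 rose and 2 fell in Cre mice, where 7900 of all 14062 genes rose and 1748 fell.

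The list of capillary and large vessel genes was split. Of 17 tested, 8 rose and 4 fell on MCD in Cre mice (median 0.62), 4 rose and 4 fell in FLCN KO mice (median 0.07), and on MCD 7 were lower and none higher in FLCN KO than in Cre mice (median -0.52), where 8.53% of all genes were lower and 8.06% higher. Among those that rose in Cre mice were the leukocyte adhesion molecules Icam1 (1.68 ± 0.157, adjusted p = 1.67e-08) and Vcam1 (1.67), P-selectin, Selp (1.84), and the tetraspanin Cd9 (1.06). Icam1 and Cd9 are made by other liver cells too, and which cells made the transcripts of the other genes of this list was not tested. Icam1 averaged 11.5 ± 1.57 CPM in Cre Chow, 36.9 ± 8.51 in Cre MCD, 18.1 ± 1.68 in FLCN KO Chow and 26.4 ± 6.09 in FLCN KO MCD, and its interaction was -1.13 (adjusted p = 0.00363). Ly6a, which also marks progenitor and immune cells, was 1.18 higher in FLCN KO mice on chow and fell by 0.83 on MCD in Cre mice and by 2.52 in FLCN KO mice, with an interaction of -1.70 (adjusted p = 0.00477). On MCD the lowest adjusted p for genotype were those of Selp (-1.66), Col15a1 (-1.92), Fabp4 (-0.94) and Thbd, thrombomodulin (-1.18). Without the 3 libraries high in muscle transcripts 1 of the 17 was lower in FLCN KO mice on MCD in place of 7, while calls over all genes, in both directions, went from 2333 to 1208, and leaving out Cre MCD 3 alone took the count of the list to 6. Cav1, caveolin-1, was higher in males in the fit with sex (1.16, adjusted p = 0.0467). Of the 7 listed genes below the count minimum, Aplnr had at most 3 reads in any library.

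Of 10 genes of the endothelial basement membrane tested, 7 rose and 1 fell in Cre mice (median 0.74), 4 rose and 3 fell in FLCN KO mice (median 0.13), and 5 had a lower diet effect in FLCN KO mice by the interaction (median -0.80), where 5.54% of all genes had a lower and 3.29% a higher one. The type IV collagen chains Col4a1 and Col4a2 rose by 1.71 and 1.45 in Cre mice and by 0.54 and 0.44 in FLCN KO mice, with interactions of -1.18 (adjusted p = 0.00129) and -1.01 (adjusted p = 0.000706). Col4a1 averaged 35.6 ± 5.79 CPM in Cre Chow, 116.8 ± 24.5 in Cre MCD, 46.1 ± 7.36 in FLCN KO Chow and 67.0 ± 9.78 in FLCN KO MCD. Perlecan, Hspg2, and the matricellular protein Sparc also had a lower interaction (-0.86 and -0.98), as did nidogen Nid1. Its relative Nid2 fell by 1.54 and 2.01. Without the 3 libraries high in muscle transcripts 2 of the 10 interactions passed in place of 5, while those over all genes went from 1242 to 657. Stellate cells make these collagens as well, and 5 of 10 stellate cell genes rose in Cre mice, among them Col1a1 (2.67), Des (2.83), Acta2 (2.09) and Hand2 (0.83), with 1 that fell, and none rose and 1 fell in FLCN KO mice, against 29.3% of all genes risen and 28.2% fallen in Cre mice and 22.5% either way in FLCN KO mice. Des and Acta2 are also muscle genes. The sum of the 10 stellate genes, of which Ecm1 was the most abundant, had medians of 339, 382, 394 and 327 CPM in Cre Chow, Cre MCD, FLCN KO Chow and FLCN KO MCD. The part of stellate cells in the basement membrane values was not tested.

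**Figure D5:**
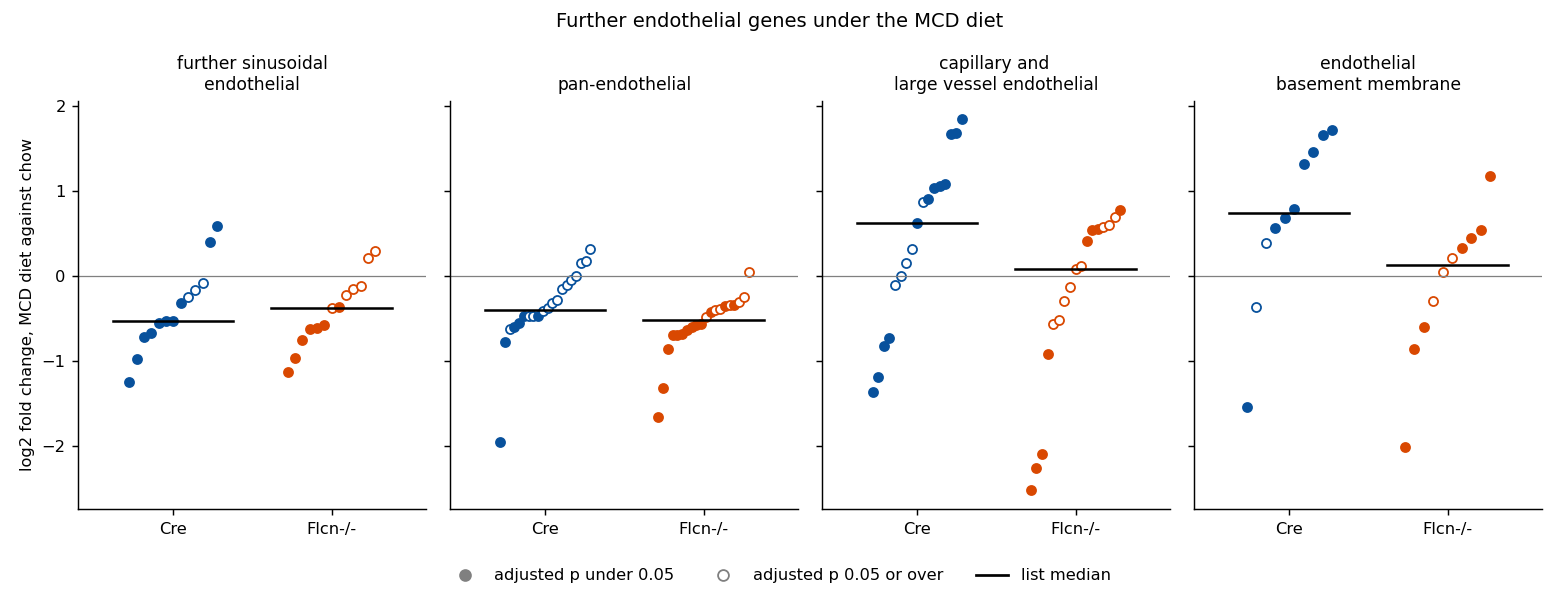
Each point is the log2 fold change of 1 tested gene on MCD against chow, in Cre (blue) and liver-Flcn-/- mice (orange), sorted within each list; filled points have an adjusted p under 0.05 and the line is the list median. The medians of the further sinusoidal and pan-endothelial lists are negative in both genotypes (-0.53 and -0.38, -0.40 and -0.52), and those of the vessel and basement membrane lists are 0.62 and 0.74 in Cre mice and 0.07 and 0.13 in liver-Flcn-/- mice.

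Vegfa, a growth factor of endothelium made largely by hepatocytes, fell on MCD by 0.88 in Cre mice and by 0.47 in FLCN KO mice, from 113.6 ± 8.62 to 61.9 ± 18.0 CPM and from 93.2 ± 12.6 to 67.5 ± 10.7. Vegfb, a ligand of VEGFR-1, fell by 1.61 in Cre mice (14.5 ± 2.92 to 4.76 ± 2.40 CPM) and was higher in FLCN KO mice on both diets, by 0.92 on chow (adjusted p = 0.00875) and 2.06 on MCD (adjusted p = 3.56e-06), with an interaction of 1.14 (adjusted p = 0.0262). Angpt2, a Tie2 ligand of stressed endothelium, rose by 0.94 and 1.42 and was 0.83 higher in FLCN KO mice on MCD. Its receptor Tek was lower in FLCN KO mice on MCD than on chow (-0.68, adjusted p = 0.00894), as was Tie1 (-0.64). Of the 11 VEGF and angiopoietin genes, 1 rose and 2 fell in Cre mice and 1 rose and 5 fell in FLCN KO mice. Without Cre MCD 3 the count in Cre mice was 1 risen and 6 fallen, while calls over all genes, in both directions, went from 8089 to 8209. Of 10 angiocrine ligands, 2 rose and 3 fell in Cre mice and 1 rose and 2 fell in FLCN KO mice. With all mice in the fit, 29.3% of all genes rose and 28.2% fell in Cre mice and 22.5% rose and 22.5% fell in FLCN KO mice. The counts of that fit are therefore no result about either list, and the count of VEGF and angiopoietin genes in Cre mice depends on Cre MCD 3. The interaction called 1 of the 11, Vegfb, and none of the 10 by edgeR or DESeq2, with 1 of the 10 at an unadjusted p under 0.05 by edgeR. The chemokine Cxcl12 fell by 0.89 and 0.85, the Notch ligand Dll4 fell by 1.15 in Cre mice, and Rspo3, a Wnt enhancer of the central vein, rose by 0.79 in Cre mice. Bmp6, a sinusoidal ligand of iron regulation, was 0.74 higher and Wnt2, a sinusoidal growth signal, 0.90 lower on the log2 scale (-0.90) in FLCN KO mice on MCD.

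Markers of other cells, some of which express members, are given for comparison. Of the 5 lymphatic genes 3 were tested. Pdpn rose by 1.52 in Cre mice with an interaction of -2.26 (adjusted p = 0.0256), Prox1, which hepatocytes also make, fell by 0.81 and 0.68, Ccl21a was at 0 reads in every library, and the sum had medians of 152, 117, 169 and 125 CPM in the order of groups above, with Prox1 the most abundant at a mean of 81.1 CPM. All 7 genes of monocyte-derived macrophages rose in Cre mice (29.3% of all genes) and 4 rose in FLCN KO mice (22.5%), and 6 had a lower interaction (5.54%), or 3 with limma-voom. Their sum, led by Gpnmb, had medians of 4.29 CPM in Cre Chow, 156 in Cre MCD, 10.0 in FLCN KO Chow and 144 in FLCN KO MCD. Of 11 Kupffer cell genes, led by Cd5l, 2 rose and 4 fell in Cre mice and 4 fell in FLCN KO mice, where 29.3% and 28.2% of all genes rose and fell in Cre mice and 22.5% fell in FLCN KO mice, and their sum had medians of 641, 628, 691 and 467. The part of macrophages in the Stab1 and Lyve1 values was not tested. Of 9 leukocyte genes, led by Ptprc, 8 were tested, of which 3 rose in Cre mice (29.3% of all genes rose) and 2 rose and 3 fell in FLCN KO mice (median -0.79), with median sums of 18.6, 41.3, 25.8 and 29.6 CPM. Of 9 hepatocyte genes tested, led by Alb, 7 fell in Cre mice, where 28.2% of all genes fell, and 6 fell and 1 rose in FLCN KO mice, where 22.5% fell and 22.5% rose.

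The genes whose pattern over the 22 libraries was most like that of 3 members were found by Pearson's r of log2 CPM, as a description. The libraries fall into 4 groups, so a shared group difference alone raises r. For Stab2 they were Mmp27 (r = 0.898), Gm18860 (0.897), Kcnk3 (0.895), Cyp46a1 (0.887) and Tnfrsf25 (0.878), and Mmp27, a metalloproteinase, was higher in FLCN KO mice by 6.02 on chow and 6.12 on MCD. For Clec4g they were Glb1 (0.923), Arpc1a (0.911), Dnase1l3 (0.909), Gpr182 (0.905) and Nme7 (0.884). Dnase1l3 and Gpr182 are sinusoidal genes of the list above, and Glb1, a lysosomal galactosidase, fell on MCD by 1.17 in Cre and 1.34 in FLCN KO mice. For Cd34 they were Timp2 (0.859), Lama2 (0.850), Phldb1 (0.849), Ltbp1 (0.846) and Loxl1 (0.843), and Timp2, an inhibitor of metalloproteinases, rose by 0.91 in Cre mice with an interaction of -1.20 (adjusted p = 0.0316).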

How the data were processed

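Livers of 22 mice were profiled by mRNA sequencing. Per the labels and the methods of the study, the authors demultiplexed with bcl2fastq, trimmed with Trimmomatic, aligned to GRCm38 with STAR and deposited raw counts per gene from HTSeq. Adapters carried molecular identifiers, but collapsing of duplicates and the strand setting of the counting are not given in the sources used here. The endothelial genes and all lists were chosen with earlier results of these data known. The 14062 of 55573 genes whose mean count reached 10 were fitted in 1 model of 4 groups with edgeR 4.0.16 (R 4.3.3), TMM factors and the quasi-likelihood test, and p-values were adjusted over all of them by Benjamini-Hochberg, with a threshold of 0.05. The study itself used limma. CPM were computed from TMM-scaled library sizes, and errors after ± are SE for log2 fold changes and SD for levels. Exact permutation tests used log2 CPM with a prior count of 2 and were two-sided. All libraries are described as separate mice, and no 2 libraries of a group held identical counts. Depth was 13751347 to 21144388 counts per library. The 10 genes were described in full, and from each list up to 4 genes of lowest adjusted p per comparison were named, with markers at 0 and the most abundant gene; C1qtnf1, Clec1b, Nid1, Cav1 by sex and Ptprb in FLCN KO mice fall outside that rule and were chosen after their values were seen. Alternatives were DESeq2 1.42.0, limma-voom (limma 3.58.1), other scalings and filters, covariates, a replicate block and leaving out each mouse. The sex, muscle and Y-linked splits and total counts alone were added after the data were seen. The fit was tested on simulated data.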

Additional observations from a re-analysis of the deposited data

Results flagged for a closer look

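The first 7 values below stood apart from the other mice of their group by Dixon's test, in which 40 groups of mice were examined and chance alone marks about 1 in 20. Lyve1 in Cre Chow 4 was 13.2 CPM, against 5.30 to 7.97 in the other 5 mice. Flt4 in FLCN KO Chow 1 was low at 13.7 CPM, and Flt4 in FLCN KO MCD 1 was high at 21.4 CPM. Cd34 in Cre MCD 3 was 10.7 CPM and Vwf in the same library 15.8 CPM, and this library held 3791 CPM of skeletal muscle transcripts, whose part in these values was not tested. Vwf in FLCN KO Chow 5 was 8.14 CPM, against 2.28 to 3.86 in the other 4 mice. Plvap in FLCN KO MCD 1 was 45.8 CPM, above 37.5 to 39.7 in the other 5.

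The effect of the MCD diet differed between the genotypes, by a test of that difference in edgeR, for Stab1 (-0.66 on the log2 scale, adjusted p = 0.0323), Cd34 (-2.55, adjusted p = 0.0153) and Plvap (-0.61, adjusted p = 0.0337). In each case the change was lower in liver-Flcn-/- than in Cre mice. With mouse number as a block none of the 3 passed (adjusted p = 0.0950, 0.0561 and 0.0686), and with no filter on low counts Stab1 (0.0509) and Plvap (0.0583) did not. Leaving out 1 mouse ended the call of Stab1 for 7 of the 22 mice and that of Plvap for 10.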

How the results depend on the processing

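RLE factors and sex as a covariate changed none of the 50 member results. The number of the 10 genes called was 4 for the diet in FLCN KO mice, and became 2 with total counts alone, 2 without the 2 Xist-expressing libraries with the most Y-linked reads and 0 with males only. For genotype on chow it went from 2 to 1 with limma-voom, 1 with at least 10 counts in every library (9 of the 10 genes tested), 1 with males only and 0 without the 5 chow libraries of low mapping share. For genotype on MCD it went from 3 to 1 with males only. For the interaction it went from 3 to 1 with no filter, 1 without the 3 libraries high in muscle transcripts, 1 without the Y-read libraries, 0 with males only and 0 with the replicate block. Leaving out 1 mouse gave 5 to 6, 2 to 5, 1 to 2, 3 to 4 and 1 to 3 called genes in the 5 comparisons. The correlation of deviations between mice of the same number ran from -0.14 to -0.015 for the diet in Cre mice, from -0.19 to 0.21 for the diet in FLCN KO mice, from -0.55 to 0.47 for genotype on chow and from 0.062 to 0.26 for genotype on MCD. In none of these was every pair above 0.1, so the numbers were not taken as a pairing. The replicate block also ended the calls of Vwf for the diet in Cre mice (adjusted p = 0.0502) and of Kdr for the diet in FLCN KO mice (adjusted p = 0.0665).

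The number of all genes called moved by over 1.5 times with males only, from 8089 to 4684, 6328 to 2916, 1212 to 339, 2333 to 687 and 1242 to 62 in the 5 comparisons. For genotype on chow it was also 494 without the low-mapping libraries, 670 without FLCN KO Chow 4 and 624 with females only. For genotype on MCD it was 1208 without the muscle-rich libraries. For the interaction it was 779 without the low-mapping libraries, 552 with the replicate block, 819 without Cre MCD 1, 820 without FLCN KO Chow 4, 657 without the muscle-rich libraries and 690 without the Y-read libraries. The smaller sets hold fewer mice.

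No called result changed sign to another call, and the sign changes below had adjusted p over 0.05. For the diet in Cre mice, Stab2 was -0.045 without the low-mapping libraries, -0.20 with females only and -0.035 without the muscle-rich libraries, Flt4 was 0.12 with total counts alone and 0.23 with males only, and Pecam1 was 0.34 and 0.43 in those. For the diet in FLCN KO mice, Stab2 was 0.051 without the low-mapping libraries, 0.24 with total counts alone and 0.14 with females only, Vwf was -0.25 without the low-mapping libraries, -0.047 with low mapping share as a covariate and -0.12 with females only, Plvap was 0.11 with total counts alone, and Flt4 was 0.019 and Cd34 0.49 with males only. For genotype on chow, Lyve1 was 0.012 with upper-quartile factors, 0.013 with limma-voom, 0.014 with no filter, 0.0070 with at least 10 counts in every library, 0.013 with only the 2 groups compared, 0.14 with total counts alone, 0.31 with males only, 0.017 without the muscle-rich and 0.078 without the Y-read libraries. There, Clec4g was -0.15 without the low-mapping libraries, -0.15 with females only, -0.0069 with the mapping covariate and -0.051 without the Y-read libraries, Vwf was 0.19 without the low-mapping libraries, 0.0081 with total counts alone and 0.20 with females only, Plvap was 0.066 with total counts alone and 0.072 with males only, and Stab1 was -0.066 with males only. For genotype on MCD, Cd34 was 0.0011 with females only and 0.14 without the muscle-rich libraries. For the interaction, Stab2 was 0.097 without the low-mapping libraries and 0.35 with females only, Flt4 was 0.092 without the low-mapping libraries, 0.062 with the replicate block, 0.048 with females only, 0.19 without the muscle-rich and 0.041 without the Y-read libraries, Kdr was -0.079 with total counts alone and -0.00086 with males only, and Clec4g was -0.041 with total counts alone.

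Leaving out 1 mouse at a time turned the sign of Pecam1 for the diet in Cre mice (-0.26 to 0.035), Stab2 (-0.061 to 0.039) and Vwf (-0.071 to 0.50) for the diet in FLCN KO mice, Lyve1 (-0.16 to 0.22), Clec4g (-0.080 to 0.12), Vwf (-0.56 to 0.0050) and Plvap (-0.14 to 0.021) for genotype on chow, Flt4 (-0.033 to 0.19) and Cd34 (-0.96 to 0.0046) for genotype on MCD, and Flt4 (-0.17 to 0.063) and Kdr (-0.040 to 0.19) for the interaction. The cause of these changes was not tested. Cd34 had 8 to 22 reads per mouse in Cre Chow.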
